A study of Chlamydomonas reinhardtii with 90 samples.

Results

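Heat for 0.5 h at 35°C was set against the state of the same kind of cultures before heating. The comparison comprised 3 RNA libraries labelled 35°C heat 0.5 h, named A, B and C, and 3 libraries labelled pre-heat of the 35°C treatment, also named A, B and C, which makes 6 of the 90 libraries of the series. Members were chosen by their columns in the count table, and all genes entered: 17741 genes were listed and 15541 had enough reads to be tested. All libraries came from CC1690 (also called 21gr, mt+), a wild-type strain of the green alga Chlamydomonas reinhardtii. In both groups cells grew in Tris-acetate-phosphate medium, which supplies acetate as a carbon source, in photobioreactors under continuous illumination (100 µmol photons per square metre and second), with the density held steady by the OD680 signal. Heat 0.5 h libraries were made from cultures that had been at 35°C for 0.5 h, counted from when the reactor reached that temperature, and pre-heat libraries from cultures after 4 days at 25°C. The study followed 24 h of heat and 48 h of recovery at 35°C and, in other reactors, at 40°C, to ask how moderate and acute high temperatures act on the alga. The pre-heat libraries were taken earlier than the heated ones, and cultures kept at 25°C for the same time were not analysed here, so heat and time in the reactor cannot be told apart.

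Heat unfolds proteins, and cells answer by making chaperones. Heat shock factors are transcription factors that bind heat shock elements in front of chaperone genes, and in Chlamydomonas HSF1 is the main one. Small heat shock proteins hold unfolding proteins, HSP70 and HSP90 with their co-chaperones refold them, CLPB proteins pull aggregates apart, and chaperonins form barrels in which proteins fold, with separate sets in the cytosol, the chloroplast, the mitochondria and the endoplasmic reticulum. Chlamydomonas divides by multiple fission, in which rounds of DNA replication and division follow each other closely, and its single chloroplast is split in the same process.

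After 0.5 h at 35°C, 501 of the 15541 tested genes were higher than before heating, which is 3.22% of them, and 894 genes were lower, which is 5.75% (8.98% in either direction). A gene was counted when edgeR's quasi-likelihood test with Benjamini-Hochberg adjustment over all tested genes gave an adjusted p under 0.05, the log2 fold change was beyond 1 in either direction and the group means differed by 1 TPM (transcripts scaled to the total of a library) or more. Chaperones and folding enzymes of several compartments rose, among them 7 of 8 organelle chaperonins, and so did 4 of 21 genes of the carbon concentrating mechanism and 3 of 9 of photoprotection. Genes that fell included 28 of 32 of DNA replication, all 6 of plastid division, 15 of 25 cell cycle regulators and 5 of 7 of cobalamin uptake and methionine synthesis. Median log2 fold changes were 1.34 in the genes that rose and -1.54 in those that fell, against 0.04 over all tested genes, and 31 rises and 64 falls went beyond 3 on the log2 scale. Log2 fold changes ran from 10.53 for HSP22A to -4.86, all are 35°C heat 0.5 h over pre-heat, and a single value in brackets after a gene is its log2 fold change. The genes that rose held 6.42% to 6.77% of the reads in the heat libraries and 2.88% to 2.99% in the pre-heat libraries, and the genes that fell held 1.45% to 1.65% in the heat libraries and 5.90% to 6.20% in the pre-heat libraries. With library size alone as the scaling, the median of all tested genes was -0.15 in place of 0.04, and 318 genes rose while 1203 fell (20.9% of the changes were rises, against 35.9%).

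**Figure D1:**
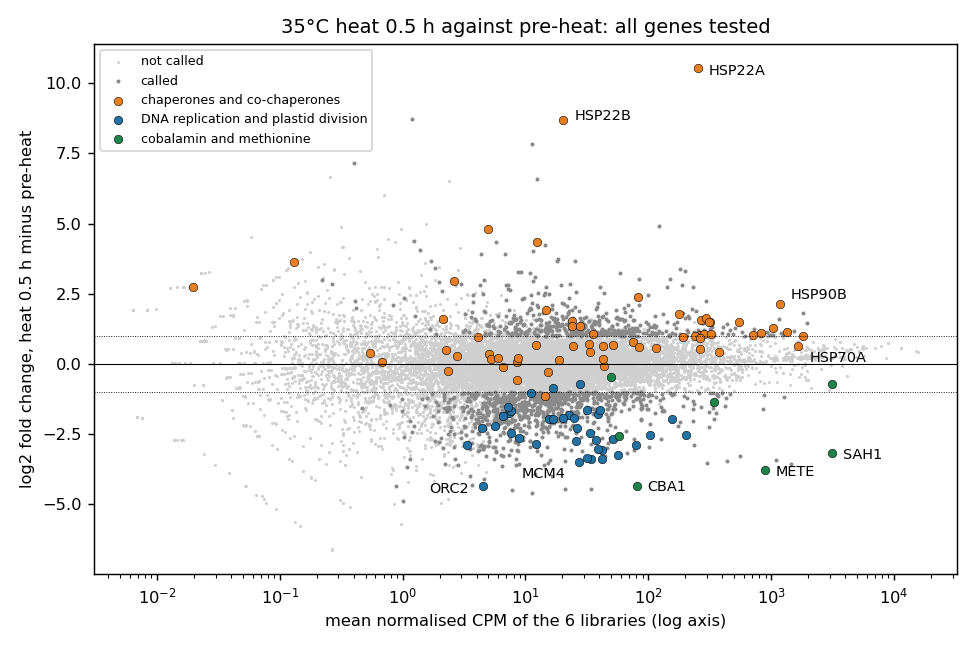
Each point is 1 of the 15541 tested genes, with the mean of the 6 libraries in CPM on a log x axis and the log2 fold change of 35°C heat 0.5 h over pre-heat on the y axis. Chaperones and co-chaperones (orange) lie mostly above 0, with HSP22A at 10.53, while DNA replication and plastid division genes (blue) and cobalamin and methionine genes (green) lie below 0, and dotted lines mark 1 and -1.

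Total counts per library were 19580818 to 27908689 in the heat libraries and 18558841 to 24178860 in the pre-heat libraries. Levels below are CPM, read counts scaled to the library total and by TMM factors, which depend on gene length, so that they compare 1 gene between samples and not genes with each other. Library pairs correlated at 0.980 to 0.989 within the heat group and 0.983 to 0.992 within the pre-heat group, and at 0.927 to 0.951 between the groups. Libraries named A stood apart from B and C in both groups: their counts differed by 38.2 and 31.7 chi-square units per degree of freedom among heat libraries, where B and C differed by 7.08, and by 21.4 and 33.99 among pre-heat libraries, where B and C differed by 5.98. The markers fixed for vegetative green algal cells were high in every library: LHCBM1, a major light-harvesting protein, had 16165 to 18419 CPM in heat libraries and 12064 to 13126 CPM in pre-heat libraries, and RBCS2, one gene of the small subunit of Rubisco, had 4396 to 5836 CPM in heat libraries and 3007 to 4157.2 CPM in pre-heat libraries. RBCS1, another gene of that subunit, went the other way, with 1561 to 1640 CPM in heat libraries and 2285 to 2463 CPM in pre-heat libraries. TUA1 and TUB2 were also lower in the heat libraries, and PSAD and PSBO were higher. Gamete genes were near 0 or low, with 0.0385 to 0.0992 CPM of GEX1 in heat libraries and at most 0.0414 CPM in pre-heat libraries, and 1.23 to 1.74 CPM of HAP2 in heat libraries and 0.290 to 0.629 CPM in pre-heat libraries. GSP1 had 4.85 to 10.6 CPM in heat libraries and 2.57 to 5.29 CPM in pre-heat libraries. Names could be matched for 11 of the 14 markers, and the mating type minus gene MID was not among them. CBLP, the gene used as reference in RT-qPCR, had 2529, 2618 and 2492 CPM in heat libraries A, B and C and 2306, 2163 and 1966 CPM in pre-heat libraries, and its log2 fold change of 0.25 (SE 0.14) had an adjusted p of 0.153 in edgeR's quasi-likelihood test.

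Of the 3 heat shock factor genes tested, 2 rose and none fell. HSF1 (Cre09.g387150) had 31.4, 49.8 and 31.2 CPM in heat libraries A, B and C, against 20.1, 17.4 and 16.1 CPM in pre-heat libraries A, B and C. Its groups did not overlap, heat library B was the highest, and the log2 fold change was 1.07 (SE 0.21, with 4.13e-05 as the adjusted p of edgeR's quasi-likelihood test). HSF2 (Cre07.g354500) had 74.9, 97.9 and 73.8 CPM in heat libraries and 39.4, 38.0 and 35.5 CPM in pre-heat libraries, a log2 fold change of 1.13 (SE 0.30), again without overlap. HSFL stood at 58.3, 51.1 and 45.9 CPM in heat libraries and 42.1, 34.2 and 25.8 CPM in pre-heat libraries, and its log2 fold change of 0.61 did not pass the test. These rises sit close to the fold limit: without heat library B neither factor passed, without pre-heat library C HSF1 did not, and with library size alone neither did.

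The small heat shock proteins held the strongest rise of the comparison, that of HSP22A. HSP22A (Cre07.g318800) had 526, 389.6 and 611 CPM in heat libraries A, B and C, against 0.332, 0.315 and 0.365 CPM in pre-heat libraries. The transcript was thus close to absent before heating and was present in all heat libraries, with a log2 fold change of 10.53 (SE 0.93, adjusted p = 2.30e-14, edgeR's quasi-likelihood test). Its neighbour HSP22B (Cre07.g318850) had 38.9, 37.9 and 44.8 CPM in heat libraries and 0.124, 0 and 0.137 CPM in pre-heat libraries, from 2559 reads in the heat libraries and 6 in the pre-heat libraries, a 440-fold ratio of read rates with a 95% counting interval of 202 to 1200 (exact Clopper-Pearson). HSP22C (Cre03.g145787) had 8.005, 8.36 and 12.6 CPM in heat libraries and 0.332, 0.315 and 0.365 CPM in pre-heat libraries, a log2 fold change of 4.81. No other member of the family passed the test. HSP22E had 6.62, 5.36 and 7.24 CPM in heat libraries and 6.92, 5.03 and 4.52 CPM in pre-heat libraries, with overlapping groups. HSP22E and HSP22F encode proteins of the chloroplast. HSP22F had 6.12, 4.42 and 5.95 CPM in heat libraries, against 6.34, 3.83 and 4.52 CPM in pre-heat libraries, and HSP22D had 0.731, 0.412 and 0.943 CPM in heat libraries and 0.870, 0.734 and 0.410 CPM in pre-heat libraries. HSP22H was counted in 16 reads of the heat libraries and 1 read of the pre-heat libraries (16.5-fold, 95% interval 2.56 to 692), which was below the limit on TPM, and HSP22G in 2 reads of the heat libraries and 0 reads of the pre-heat libraries, at which no difference was detectable. In all, 3 of 8 small heat shock proteins rose and none fell, also after leaving out any one library, and their summed level was 446 to 683 CPM in heat libraries and 10.2 to 15.0 CPM in pre-heat libraries. Read intervals cover counting error only, and reads were kept only where they mapped to 1 place, so counts of near-identical HSP22 copies are uncertain.

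Among the 17 large chaperones tested (HSP70, HSP90 and CLPB families), 7 rose and none fell, with a median log2 fold change of 0.95 beside 0.04 over all tested genes. The largest rise was that of HSP90B, the HSP90 of the endoplasmic reticulum. HSP90B (Cre02.g080650) had 1814, 2021 and 1915 CPM in heat libraries A, B and C and 449, 465 and 405 CPM in pre-heat libraries, a log2 fold change of 2.12 (SE 0.37, adjusted p = 3.61e-06, edgeR's quasi-likelihood test). The chloroplast HSP90C rose to 358, 580.1 and 451 CPM in heat libraries, against 164, 179 and 154 CPM in pre-heat libraries (1.48 on the log2 scale). Chloroplast HSP70B stood at 1392, 2302 and 1877 CPM in heat libraries and 829, 897 and 806 CPM in pre-heat libraries, a rise of 1.14 that was not called without heat library B. The endoplasmic reticulum HSP70 proteins BIP1 and BIP2 rose as well. BIP1 had 1259.5, 1717 and 1426 CPM in heat libraries and 662, 607 and 529 CPM in pre-heat libraries, a log2 fold change of 1.29. BIP2 had 16.05, 27.0 and 26.3 CPM in heat libraries and 3.56, 7.24 and 7.48 CPM in pre-heat libraries, a log2 fold change of 1.93 that was not called without pre-heat library A. CLPB1, the cytosolic disaggregase, had 26.3, 53.4 and 41.1 CPM in heat libraries and 15.04, 13.8 and 18.6 CPM in pre-heat libraries (1.35), and its call was lost without heat library B or without pre-heat library A or B. HSP70G completed the set of rises with a log2 fold change of 1.04, lost without heat library B or C or without pre-heat library A.

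The cytosolic members HSP90A and HSP70A spread widely between the heat libraries. HSP90A had 1594, 3481 and 2190.0 CPM in heat libraries A, B and C, against 1331, 1222 and 1086 CPM in pre-heat libraries. All 3 heat values lay above the pre-heat ones, heat library B was far above library A, and the log2 fold change of 0.997 (SE 0.42) had an adjusted p of 0.0534 in edgeR's quasi-likelihood test and was not called. HSP70A had 1240.0, 2938 and 1924 CPM in heat libraries and 1329.8, 1332 and 1232 CPM in pre-heat libraries, so that heat library A lay below pre-heat A and B while heat B and C lay above all pre-heat libraries (0.65, adjusted p = 0.212, edgeR's quasi-likelihood test). The mitochondrial HSP70C had 258, 572 and 461 CPM in heat libraries and 269.8, 353 and 327 CPM in pre-heat libraries, and HSP70E had 221, 421 and 385 CPM in heat libraries and 166, 185 and 191 CPM in pre-heat libraries, and neither passed. The chloroplast disaggregase CLPB3 had 99.1, 102 and 103 CPM in heat libraries and 61.4, 64.6 and 72.8 CPM in pre-heat libraries, with a log2 fold change of 0.62 that did not pass. Leaving out 1 library gave 4 to 9 rises among the 17 chaperones, with 9 when heat library A was left out and 4 when heat library B or pre-heat library A was, and library size alone gave 5.

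Chaperonins of the chloroplast and mitochondria rose nearly throughout: 7 of 8 were called higher and none lower, with a median of 1.10. CPN60C, the mitochondrial chaperonin, had 506, 998 and 903 CPM in heat libraries A, B and C and 239, 310.3 and 302 CPM in pre-heat libraries, a log2 fold change of 1.499 (SE 0.37, adjusted p = 7.61e-04, edgeR's quasi-likelihood test). Its co-chaperonin CPN10 had 375, 431 and 384 CPM in heat libraries and 159, 127 and 119.5 CPM in pre-heat libraries (1.55). Neither gene's groups overlapped. In the chloroplast set, CPN23 had 404, 504 and 494 CPM in heat libraries and 159, 174 and 169 CPM in pre-heat libraries (1.48), and CPN60B2 had 941, 1226 and 1225 CPM in heat libraries and 507, 557 and 504 CPM in pre-heat libraries (1.11). CPN60A (1.04), CPN60B1 (1.08) and CPN11 (1.01) rose by amounts just past the limit, and CPN20 at 0.97 did not reach it. CPN60A was not called without heat library B or C or pre-heat library A, and CPN11 was not without heat library B or pre-heat library B or C. The summed level of the 8 genes was 3925, 5304 and 5107 CPM in heat libraries and 1972, 2176 and 2076 CPM in pre-heat libraries. Library size alone left 3 of the 7 rises, and leaving out 1 library gave 5 to 8.

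The cytosolic chaperonin CCT, which folds actin and tubulin among others, was lower in level in the heat libraries without passing the limit. All 8 CCT subunits had every heat library below every pre-heat library, where 26.0% of all tested genes did, with log2 fold changes of -0.97 to -0.56 and none called. Their summed level was 626, 736 and 750.2 CPM in heat libraries and 1199, 1183 and 1147 CPM in pre-heat libraries. CCT5 had 119, 137 and 132 CPM in heat libraries, against 239, 225 and 216 CPM in pre-heat libraries (-0.81, SE 0.18), and with library size alone 3 of the 8 passed as lower. Of the 18 proteasome genes, 17 likewise had all heat libraries below all pre-heat libraries, with a median of -0.47 and none called. POA1, a subunit of the proteasome core, had 91.3, 77.4 and 80.0 CPM in heat libraries and 127, 111 and 104 CPM in pre-heat libraries.

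Co-chaperones and prolyl isomerases held some of the sharpest rises outside the HSP22 family. Among 29 co-chaperones of HSP70 and HSP90, 8 rose and 1 fell, with a median of 0.65. The J-domain protein DNJ7 (Cre01.g019950) had 16.2, 32.5 and 22.2 CPM in heat libraries A, B and C, against 1.04, 1.05 and 1.41 CPM in pre-heat libraries, a log2 fold change of 4.33 (SE 0.59). HOP, which links HSP70 to HSP90, had 202, 303 and 314 CPM in heat libraries and 74.1, 82.5 and 83.0 CPM in pre-heat libraries (1.77). CGE1, the nucleotide exchange factor of chloroplast HSP70B, had 392, 474 and 475 CPM in heat libraries and 138, 144 and 149 CPM in pre-heat libraries (1.64). In each of these the heat values lay above all pre-heat values. DNJ21 (2.39), DNJ3 (1.52), DNJ37 (1.34), DNJ35 (1.08) and VIPP1 (1.07), a protein of thylakoid membrane upkeep, also rose, and DNJ26 fell by 1.15 on the log2 scale. Of 32 peptidyl-prolyl isomerases, which turn proline bonds during folding, 9 rose and 1 fell. FKB62 (Cre09.g398067), of the FK506-binding type, had 259, 418 and 415 CPM in heat libraries and 33.2, 38.0 and 38.7 CPM in pre-heat libraries, a log2 fold change of 3.31 (SE 0.50, adjusted p = 2.07e-07, edgeR's quasi-likelihood test). FKB42 (1.88), FKB21 (1.65) and FKB19 (1.32) followed, and CYN47 was the member that fell (-1.22, not called without heat library C or pre-heat library B).

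Of 14 genes for folding in the endoplasmic reticulum, 7 rose and none fell, and 4 of the 7 (BIP1, BIP2, HSP90B and HSP70G) stood on the list of large chaperones too. PDI4, a protein disulfide isomerase, had 240.5, 330.4 and 323 CPM in heat libraries and 76.9, 92.5 and 84.4 CPM in pre-heat libraries (1.82). PDI6 (Cre07.g326600) had 99.4, 119 and 124 CPM in heat libraries and 35.8, 40.2 and 38.7 CPM in pre-heat libraries (1.58). Calreticulin CRT2, a calcium-binding chaperone, had 1897, 2370.1 and 2161 CPM in heat libraries and 1007, 936 and 875 CPM in pre-heat libraries (1.19). None of these groups overlapped, and the 14 genes together had 6712, 8178 and 7552 CPM in heat libraries and 3931, 3798 and 3516 CPM in pre-heat libraries. Among 22 organelle proteases, 4 rose and 1 fell. CLPS2, an adaptor of the Clp protease, had 29.9, 53.4 and 29.6 CPM in heat libraries and 10.3, 7.13 and 4.70 CPM in pre-heat libraries (2.35), and the protease LON1 had 73.2, 123 and 106 CPM in heat libraries and 24.9, 29.7 and 29.4 CPM in pre-heat libraries (1.85). DEG11 (1.59) and DEG8 (1.13) rose less, and CLPD1 fell (-1.61).

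**Figure D2:**
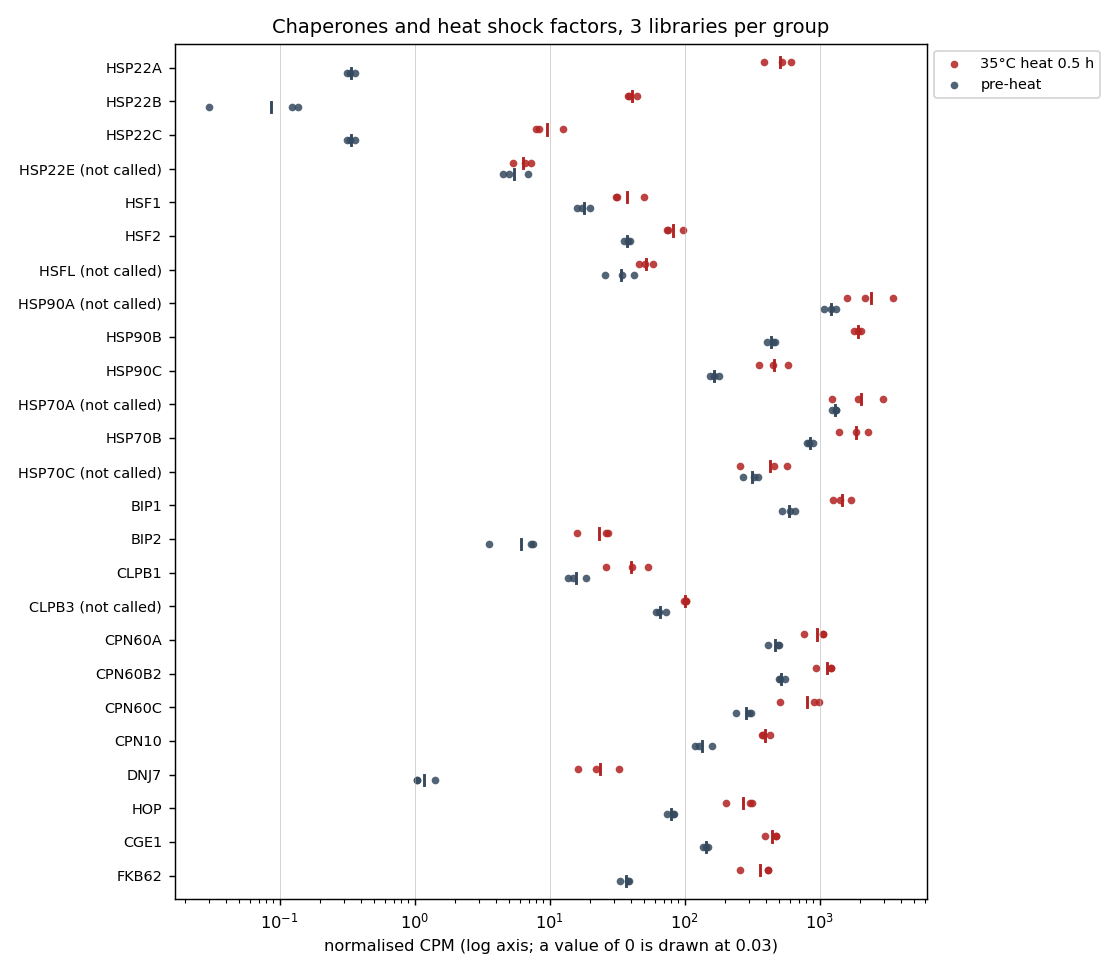
Levels of 25 chaperone, co-chaperone and folding genes in each library, in CPM on a log x axis, with 35°C heat 0.5 h (red) above pre-heat (dark) in each row, points for libraries and a bar for the group mean (n = 3), and 0 drawn at the left edge. HSP22A and HSP22B stand apart with almost no reads before heating, HSP90B and FKB62 rise without overlap, and HSP70A overlaps.

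Several of the strongest rises belonged to genes with no assigned function in the tables used. CGL33A (Cre07.g313600) had 2.001, 2.89 and 2.28 CPM in heat libraries, from 147 reads, and no read in any pre-heat library, at least 50.6-fold higher when set against 3 reads over the group. Cre06.g283900 had 168, 311 and 232 CPM in heat libraries A, B and C and 6.55, 9.86 and 7.21 CPM in pre-heat libraries (4.92). Its neighbour on the chromosome was LHCBM4, which rose too. SRS9, annotated as a serine/arginine-rich splicing factor, had 241, 302 and 265 CPM in heat libraries and 33.7, 35.9 and 29.3 CPM in pre-heat libraries (3.03, SE 0.37). Cre13.g579976 (4.33), Cre06.g292315 (4.24), Cre12.g522626 (4.01) and the adjacent pair Cre01.g000017 (3.91) and Cre01.g000033 (3.65) rose by more than 3 on the log2 scale. A pair of genes chosen after their values were seen rose further but had low TPM: Cre03.g152750 had 9.81, 45.6 and 11.5 CPM in heat libraries and 0.0829, 0.157 and 0.0456 CPM in pre-heat libraries, with heat library B far above A and C. Cre02.g109366, annotated as a SET-domain regulator of transcription, had 18.28, 32.8 and 21.9 CPM in heat libraries and 0.166, 0.524 and 0.0912 CPM in pre-heat libraries.

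Genes of cobalamin uptake and methionine synthesis fell strongly. Cobalamin, or vitamin B12, serves one form of methionine synthase (METH), while METE makes methionine without it, and both feed the cycle of S-adenosylmethionine, the donor of methyl groups. CBA1 (Cre01.g036950), which is needed to take up cobalamin, had 9.66, 6.36 and 6.65 CPM in heat libraries A, B and C, against 152, 149 and 162 CPM in pre-heat libraries. The groups lay far apart, with a log2 fold change of -4.34 (SE 0.27, adjusted p = 2.88e-20, edgeR's quasi-likelihood test with Benjamini-Hochberg adjustment). METE (Cre03.g180750) had 123, 115 and 122 CPM in heat libraries and 1287, 1735 and 1966 CPM in pre-heat libraries (-3.79, SE 0.21). SAH1 (Cre03.g204250), which clears S-adenosylhomocysteine, had 686, 595 and 571 CPM in heat libraries and 5727, 5769.7 and 5304 CPM in pre-heat libraries (-3.18). CBA2 had 20.1, 15.8 and 14.5 CPM in heat libraries and 113, 98.7 and 86.7 CPM in pre-heat libraries (-2.56). METH fell by 1.35 on the log2 scale, so that both forms of methionine synthase were lower, while METC and METM at -0.45 and -0.70 were not called. In sum, 5 of the 7 genes fell and none rose, with every library left out in turn, and their summed level was 3316 to 3461 CPM in heat libraries and 11706 to 12340.5 CPM in pre-heat libraries. SHMT2, a serine hydroxymethyltransferase that supplies the one-carbon pool, was not on the list and was picked after its values were seen: it had 95.1, 120.5 and 101 CPM in heat libraries and 1032, 1073 and 944 CPM in pre-heat libraries (-3.27).

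Genes of DNA replication fell as a group. Of 32 tested, 28 fell (87.5%, beside 5.75% of all tested genes) and none rose. All 32 had every heat library below every pre-heat library, where 26.0% of all tested genes did. The median log2 fold change was -2.28 beside 0.04 over all tested genes. Their summed level was 451, 321 and 356 CPM in heat libraries A, B and C and 1915, 2009 and 1658 CPM in pre-heat libraries. ORC2, part of the complex that marks replication origins, had 0.5003, 0.294 and 0.447 CPM in heat libraries and 8.29, 8.97 and 8.57 CPM in pre-heat libraries (-4.33, SE 0.36). The helicase subunit MCM4 had 6.08, 3.65 and 3.52 CPM in heat libraries and 48.2, 55.8 and 46.9 CPM in pre-heat libraries (-3.49, SE 0.36, adjusted p = 6.45e-12, edgeR's quasi-likelihood test). The other helicase subunits were alike in direction. MCM6 had 9.24, 5.54 and 7.10 CPM in heat libraries and 74.5, 82.9 and 71.1 CPM in pre-heat libraries (-3.38), and MCM2 had 14.8, 7.60 and 10.1 CPM in heat libraries and 102, 112 and 94.8 CPM in pre-heat libraries (-3.24). MCM3 (-2.66), MCM5 (-2.71) and MCM7 (-3.05) were also called lower. DNA polymerase subunits POLA1 (-2.84) and POLD1 (-1.77), the sliding clamp PCN1 (-2.52) and the ribonucleotide reductase subunits RIR1 (-2.53) and RIR2 (-1.95) fell with them. RPA12, RFA1, CDC6 and CDT1 were the 4 members not called. Leaving out any one library gave 26 to 29 falls. In RNA from whole cultures, fewer cells in a stage of the cycle and less transcript per cell cannot be told apart.

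Regulators of the cell cycle and the plastid division machinery went down as well. Of 25 regulators, 15 fell and none rose, with a median of -1.12. The cyclin gene CYCAB1 had 14.0, 4.59 and 6.20 CPM in heat libraries and 67.9, 62.6 and 51.4 CPM in pre-heat libraries (-2.86). CDKB1, the mitotic cyclin-dependent kinase, had 26.3, 11.9 and 16.9 CPM in heat libraries and 105, 88.0 and 71.1 CPM in pre-heat libraries (-2.25). Heat library A kept the highest level of the heat libraries in both, and no group overlapped. CYCD1 (-2.20), CKS1 (-2.15), WEE1 (-1.96) and CDKA1 (-1.62) also fell, as did MAT3 (-1.12), the retinoblastoma homologue that sets division by cell size. All 6 plastid division genes fell, with a median of -2.76. FTSZ1, a tubulin-like protein of the plastid division ring, had 8.27, 4.83 and 4.71 CPM in heat libraries and 59.1, 66.4 and 61.0 CPM in pre-heat libraries (-3.37, SE 0.42), and FTSZ2 had 8.08, 3.95 and 4.66 CPM in heat libraries and 62.9, 59.5 and 49.5 CPM in pre-heat libraries (-3.35). MIND1, which helps place the ring, had 26.4, 13.2 and 17.2 CPM in heat libraries and 159, 155 and 106 CPM in pre-heat libraries (-2.88), and ARC6 fell by 2.64 on the log2 scale. Of 10 genes of the SMC family of chromosome structure, 4 fell, SMC5B (-2.44), SMC2 (-2.16), SMC4 and SMC6A. Of 122 cell cycle genes that the study had chosen as changed, 81 fell and 1 rose, and since that list was chosen on these samples it is not independent evidence of its direction. It also shares ORC2 with the list of DNA replication, so the counts of these lists are not separate from each other. Of 44 histone genes, 18 had enough reads to test and none of those was called, with a median of -0.59, and since histone genes are near-identical copies, reads that fit several were not counted.

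Of 5 genes tested for the synthesis of purines and pyrimidines, the bases of DNA and RNA, PYR7 (-1.98), PYR2 (-1.605) and PYR5 (-1.12) fell, and PYR4 (-0.04) and GUA1 (-0.31) were not called. PYR7, a CTP synthetase, had 34.98, 35.6 and 35.1 CPM in heat libraries and 143, 144 and 129 CPM in pre-heat libraries, with little spread in either group. GSN1, the NADH-dependent glutamate synthase, had 41.02, 66.1 and 61.2 CPM in heat libraries A, B and C and 326, 403 and 504 CPM in pre-heat libraries (-2.87, SE 0.28), the strongest fall among the 64 nitrogen genes. Of these 5 rose (7.81%) and 2 fell (3.12%), beside 3.22% and 5.75% of all tested genes. Other large falls followed. CGLD37, annotated only as RNA binding, had 248, 194 and 228 CPM in heat libraries and 2876, 2576 and 2502 CPM in pre-heat libraries (-3.57), and FAP24, a flagellar-associated protein, had 182, 183 and 193 CPM in heat libraries and 1929.9, 2074 and 1974 CPM in pre-heat libraries (-3.42). In both, every heat library lay far below every pre-heat library. FAP24 was one of 5 falls among 108 axoneme and flagella genes (4.63%, beside 5.75% of all tested genes). The median of that list, 0.27, turned to -0.05 on the TPM scale, and none of the 9 genes of intraflagellar transport was called. Over all tested genes the median log2 ratio of mean TPM was -0.28. Among genes with a mean of 5 TPM or more in a group, the largest falls without a symbol were Cre06.g278167, with 3.12, 2.41 and 3.32 CPM in heat libraries and 63.7, 67.0 and 66.5 CPM in pre-heat libraries, and Cre09.g412400, with 3.19, 0.883 and 1.19 CPM in heat libraries and 49.5, 42.3 and 29.8 CPM in pre-heat libraries.

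**Figure D3:**
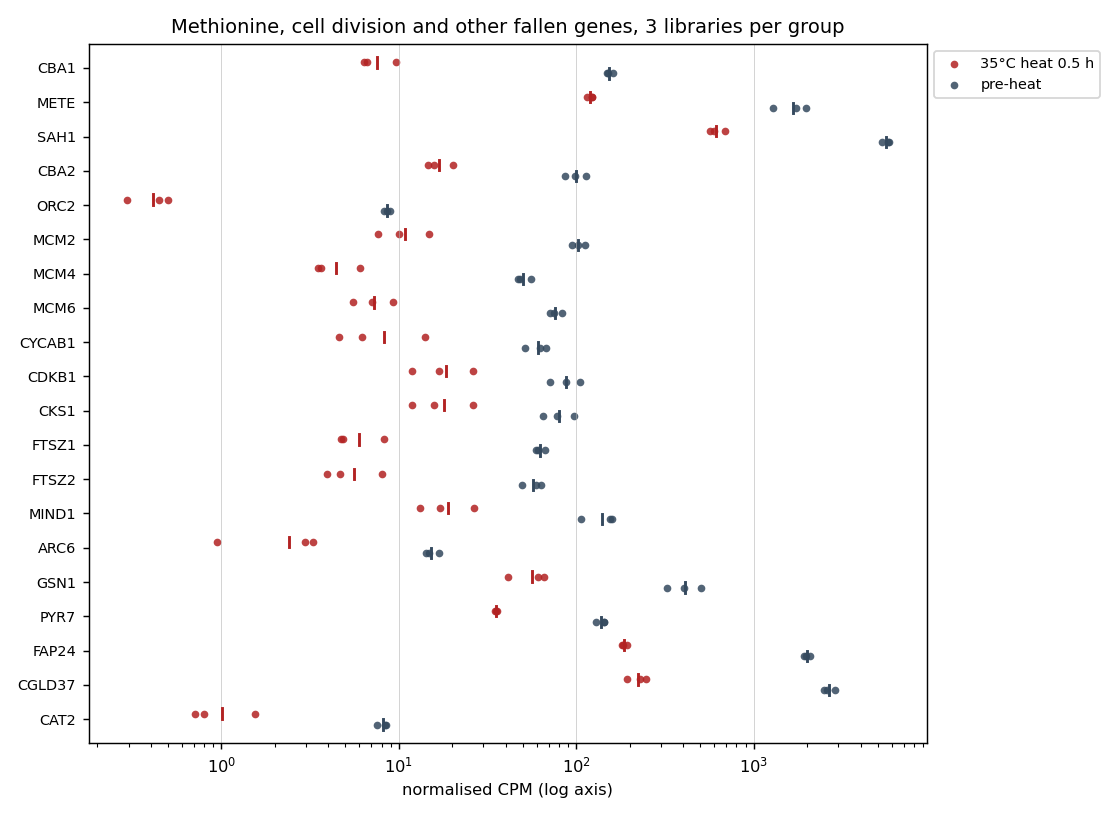
Levels in each library of 20 genes that fell, in CPM on a log x axis, with 35°C heat 0.5 h (red) above pre-heat (dark) in each row, points for libraries and a bar for the group mean (n = 3). CBA1, METE, SAH1 and the MCM and FTSZ genes show no overlap, and heat library A is often the highest of the heat libraries in the division genes.

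Structural genes of the photosystems were somewhat higher in level in the heat libraries without passing the limit, and a few antenna genes and regulators rose. None of the photosystem II (5), photosystem I (10), photosystem I antenna (7) or cytochrome b6f and ATP synthase (7) genes was called, with medians of 0.62, 0.51, 0.50 and 0.52 beside 0.04 over all tested genes. All heat libraries nonetheless lay above all pre-heat libraries in 5 of 5, 9 of 10, 7 of 7 and 7 of 7 of them, where 27.7% of all tested genes did. PSBO, of the oxygen-evolving complex, had 6859, 7331 and 7029.7 CPM in heat libraries and 4605, 4798 and 4787 CPM in pre-heat libraries (0.58). Of 9 major light-harvesting genes, LHCBM4 and LHCBM8 rose. LHCBM4 had 3146, 2766 and 2609 CPM in heat libraries and 1163, 1044 and 921 CPM in pre-heat libraries (1.45, SE 0.26), and LHCBM8, at 1.08, was not called without heat library A or pre-heat library C. LHCBM genes are close copies of each other, so reads that fit more than 1 of them were not counted. STT7, the kinase that moves antenna between the photosystems, had 379, 428 and 393 CPM in heat libraries and 153, 152 and 136 CPM in pre-heat libraries (1.44). The photoprotection list of 9 had 3 rises: LHCSR3.1, which drives heat dissipation of excess light, had 86.1, 53.3 and 56.1 CPM in heat libraries and 34.6, 14.6 and 11.1 CPM in pre-heat libraries (1.70, not called without pre-heat library B or C). ELIP5 (1.41) and LCI16 (1.22) were the others. Among 25 chlorophyll synthesis genes 2 rose and 1 fell, HEMD1 (1.25) and CPX1 (1.01) up and PBGD2 (-1.52) down, and among 20 carotenoid genes 3 rose, CMK1 (1.23), LCYE1 (1.12) and MCS/MEC1 (1.10), and VDE fell (-1.43). CPX1 was not called without heat library A or pre-heat library C, and 4 chlorophyll genes rose without pre-heat library B.

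The carbon concentrating mechanism, which raises CO2 around Rubisco, had 4 rises among 21 genes and no fall, with a median of 0.59. CAH3, the carbonic anhydrase of the thylakoid lumen, had 645, 655 and 622 CPM in heat libraries and 265, 243 and 204 CPM in pre-heat libraries (1.43, SE 0.22). LCID (1.30), CAH4 (1.43) and LCIC (1.03) also rose. CAH4 was not called without heat library A or pre-heat library B or C, LCIC was not without heat library B or C or pre-heat library A, and with the replicate letter as a block 7 of the 21 rose. Leaving out 1 library gave 3 to 6 rises in this list. CST1, a membrane transporter of unknown function named for its abundance, had 3178, 2711 and 2582 CPM in heat libraries and 844, 838 and 698 CPM in pre-heat libraries (1.83). Among 45 genes on the list of starch and sugar synthesis 2 rose (4.44%) and 3 fell (6.67%), near the 3.22% and 5.75% of all tested genes. The soluble starch synthases SSS2 and SSS6 were the rises: SSS2 had 296, 316 and 283 CPM in heat libraries and 92.2, 104 and 93.2 CPM in pre-heat libraries (1.63), and SSS6 had 31.1, 40.2 and 36.0 CPM in heat libraries and 11.4, 12.8 and 13.0 CPM in pre-heat libraries (1.52). PHOA (-1.08), AMA2 (-1.03) and GSL1 (-1.71, not called without heat library B or pre-heat library C) fell, with 6 falls without heat library A and 5 without pre-heat library A or B, while the list's median of 0.15 turned to -0.04 with library size alone. The study's functional annotation, looked at after the values were known, places PHOA and AMA2 under degradation of major carbohydrates. There 4 of 24 tested genes fell and none rose, while its synthesis group had 3 rises in 16 and no fall. Of all tested genes 3.22% rose and 5.75% fell. The annotation used here covered 3137 of the 15541 tested genes, and the study lists more transcripts in both groups. The contrast therefore describes only part of each group and was not tested. Among 18 starch breakdown genes 2 rose and 2 fell, with 4 falls without heat library B or pre-heat library A. FAD6, the chloroplast fatty acid desaturase, had 1458, 1633 and 1389.9 CPM in heat libraries and 661, 567 and 533 CPM in pre-heat libraries (1.35) and was with GPD1 (1.13) one of 2 rises among 20 lipid genes.

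Genes against reactive oxygen species held a few calls in both directions. Of 39 tested, 4 rose (10.3%) and 3 fell (7.69%), beside 3.22% and 5.75% of all tested genes. The rises came to 2 with library size alone or without heat library B. The peroxiredoxin PRX6 had 10.4, 25.3 and 20.8 CPM in heat libraries A, B and C and 4.19, 2.78 and 3.33 CPM in pre-heat libraries (2.44, SE 0.42). The iron superoxide dismutase FSD1 (1.03), the peroxiredoxin PRX2 (1.02) and SRX2 (1.21) rose less. FSD1 was not called without heat library B or pre-heat library C, and PRX2 was not without heat library B or C or pre-heat library A. CAT2, a catalase, had 1.54, 0.707 and 0.794 CPM in heat libraries and 7.58, 8.39 and 8.44 CPM in pre-heat libraries (-2.96), and the manganese superoxide dismutase MSD3 had 2.96, 1.18 and 2.13 CPM in heat libraries and 11.6, 12.9 and 13.9 CPM in pre-heat libraries (-2.58). In both, heat and pre-heat values did not overlap. NTRC1, a thioredoxin reductase of the chloroplast, had 208, 253 and 239 CPM in heat libraries and 78.6, 91.1 and 92.5 CPM in pre-heat libraries (1.42). It was among 5 rises (7.35%) and 3 falls (4.41%) in 68 thioredoxins and relatives, beside 3.22% and 5.75% of all tested genes. The median of that list, 0.06, turned to -0.13 with library size alone, and 1 member fell without heat library B. PHC8, a pherophorin of the cell wall, had 440.1, 494 and 526 CPM in heat libraries and 89.1, 106 and 115 CPM in pre-heat libraries (2.24). Of the 54 genes on the cell wall list 3 others fell (5.56%), about the share of all tested genes (5.75%).

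The remaining lists held few or no calls, to be read beside the 3.22% of all tested genes that rose and the 5.75% that fell. None of 60 cytosolic and 32 plastid ribosomal protein genes was called, with medians of 0.23 and 0.10. On the log2(TPM + 1) scale these medians were -0.09 and -0.21, where the median log2 ratio of mean TPM over all tested genes was -0.28. Among 29 translation factors, 2 rose (EFG1 1.11, EFG9 1.04) and 1 fell (EIF3D -1.02, not called without heat library A or pre-heat library B), with 3 falls without heat library B or pre-heat library C. The tricarboxylic acid cycle had 0 rises and 1 fall in 20, the respiratory chain 2 and 0 in 61, acetate use 1 and 1 in 13, the Calvin-Benson cycle 1 and 0 in 19, DNA repair 1 and 1 in 11, iron assimilation 1 and 0 in 9, cyclic electron flow 2 and 0 in 8, photosystem II assembly and repair 2 and 0 in 29, and glutathione S-transferases 0 and 1 in 21. MDN2 in acetate use and FBA2 in the Calvin-Benson cycle were not called with the replicate letter as a block, MDN2 was not without heat library B or C or pre-heat library A or B, and FBA2 was not without pre-heat library A or B. IDH3 in the tricarboxylic acid cycle was not called without heat library A, ANR1 in cyclic electron flow without heat library B, and FEA2 in iron assimilation without heat library B or C or pre-heat library A or C. Ion channels (9), gamete and zygote genes (7), tubulins and actin (4), clock genes (4) and autophagy genes (3) had no call.

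The scaling and single libraries moved several of these counts. On the TPM scale used by limma, all tested genes lay lower: their median log2 ratio was -0.28 for mean TPM and 0.04 for mean CPM. Peptidyl-prolyl isomerases had 5 rises and 2 falls with library size alone, and 3 rises and 4 falls by limma on log2(TPM + 1). The counts of calls thus turned, while the list's median by limma stayed above 0, at 0.27. Translation factors had no rise and 6 falls with library size alone and no rise and 9 falls by limma, and starch and sugar synthesis had 8 falls with library size alone and 5 by limma. The large chaperones had 2 rises by limma, co-chaperones 4, endoplasmic reticulum folding 3, organelle chaperonins 3, carbon concentrating mechanism 1, photoprotection 1 and nitrogen assimilation 0. With library size alone, starch breakdown had 5 falls, the cell wall list 5, reactive oxygen scavenging 2 rises, carbon concentrating mechanism 2 rises, carotenoid synthesis 1 rise, and photosystem II assembly and repair none. Without heat library B, reactive oxygen scavenging had 2 rises, co-chaperones 6, lipid synthesis and breakdown 1 fall and autophagy 1 rise, and without pre-heat library A, endoplasmic reticulum folding had 5 rises and the Calvin-Benson cycle 1 fall and no rise. Without heat library A, ion channels had 1 rise, acetate use 2 and the Calvin-Benson cycle 2, and the glutathione S-transferases had 1 rise without heat library A or pre-heat library A. CCT had 1 fall without heat library C or pre-heat library A.

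**Figure D4:**
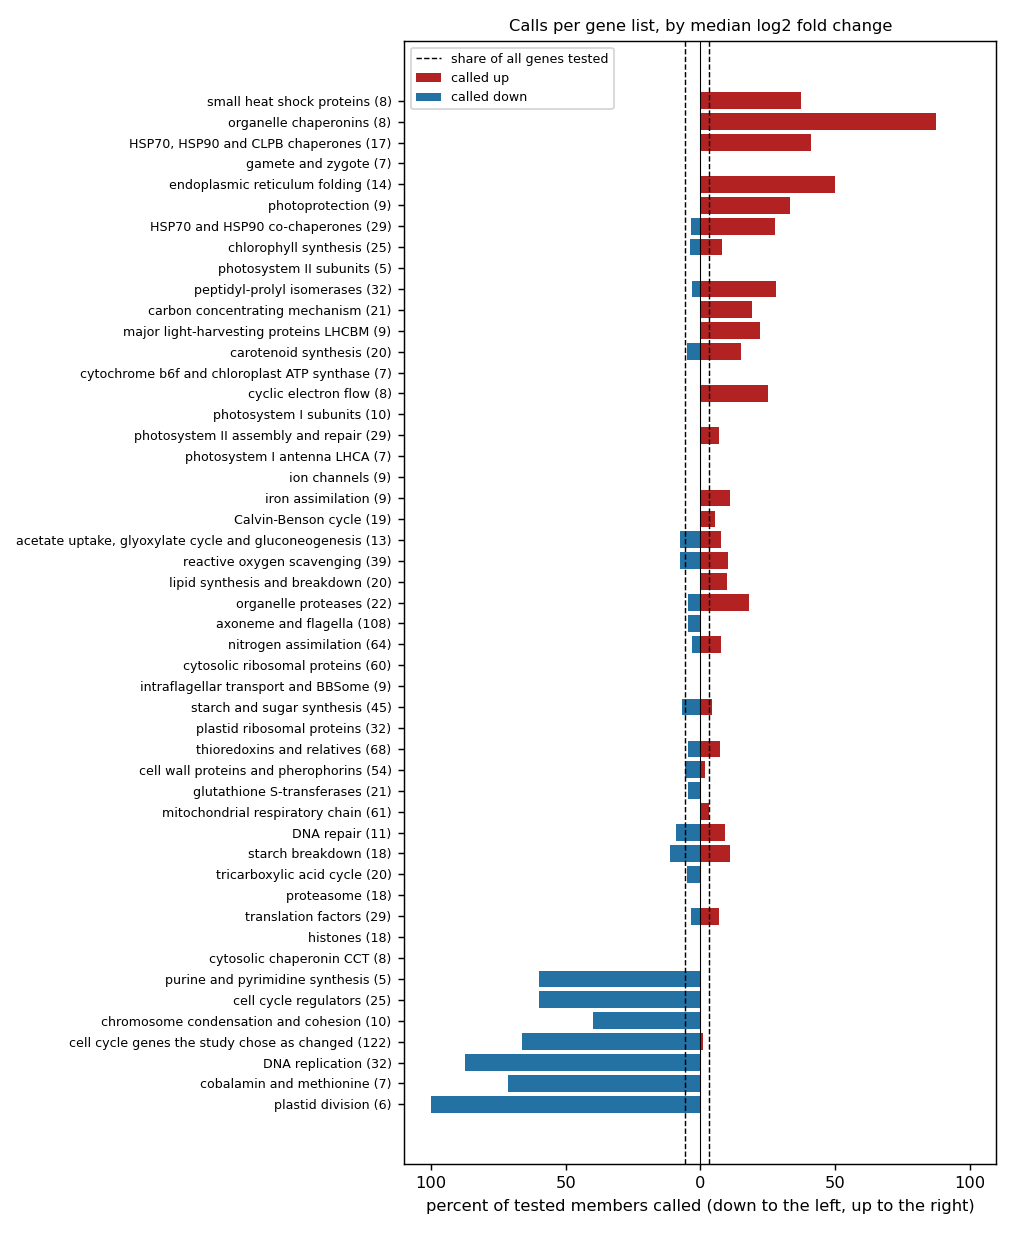
Share of tested members called higher (right) or lower (left) at 35°C heat 0.5 h over pre-heat for each gene list with 5 or more tested members, in percent, with dashed lines at 3.22% and 5.75%, the shares among all 15541 tested genes. Organelle chaperonins (7 of 8) stand farthest right, and plastid division (6 of 6) and DNA replication (28 of 32) farthest left.

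Heat 0.5 h was one of several times at 35°C, and the levels at the other times place it in a course. All comparisons with the state before heating used the same 3 pre-heat libraries, so the values are given side by side with no count of agreement. HSP22A averaged 0.337 ± 0.0256 CPM before heating, 244 ± 82.4 CPM on reaching 35°C, 509 ± 112 CPM at 0.5 h, 153 ± 11.5 CPM at 1 h and 15.2 ± 6.34 CPM at 2 h (SD, n = 3 each). Thus it was higher at 0.5 h than at the times next to it, as HSP90B was, with 439.8 ± 30.8, 1414 ± 171, 1917 ± 104, 1229 ± 156 and 460.0 ± 44.4 CPM at the same times. CLPB1 and HSP70A had their highest mean of the course on reaching 35°C. CLPB1 averaged 15.8 ± 2.47 CPM before heating, 147 ± 50.5 CPM on reaching 35°C and 40.2 ± 13.6 CPM at 0.5 h, and HSP70A 1298 ± 57.4, 3979 ± 499.99 and 2034 ± 854 CPM. HSP90A and HSF1 had the same order of means, with 4763 ± 324 and 57.9 ± 6.43 CPM on reaching 35°C, against 2422 ± 965 and 37.5 ± 10.7 CPM at 0.5 h. METE, MCM4 and GSN1, which fell, had their lowest means at 0.5 h or at 1 h. METE averaged 1663 ± 345 CPM before heating, 815 ± 236 CPM on reaching 35°C, 120.2 ± 4.13 CPM at 0.5 h, 116 ± 7.66 CPM at 1 h and 242 ± 78.7 CPM at 2 h, and its levels at 0.5 h and 1 h differed by less than their SDs. MCM4 averaged 50.3 ± 4.84, 26.2 ± 8.59, 4.42 ± 1.44, 1.84 ± 0.581 and 4.997 ± 1.18 CPM at those times and 39.6 ± 5.92 CPM at 16 h, so that its level at 0.5 h came before a lower one at 1 h and a return later. GSN1 had its lowest mean of the whole course at 0.5 h, 56.1 ± 13.3 CPM, between 92.0 ± 44.5 CPM on reaching 35°C and 136 ± 45.2 CPM at 1 h.

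**Figure D5:**
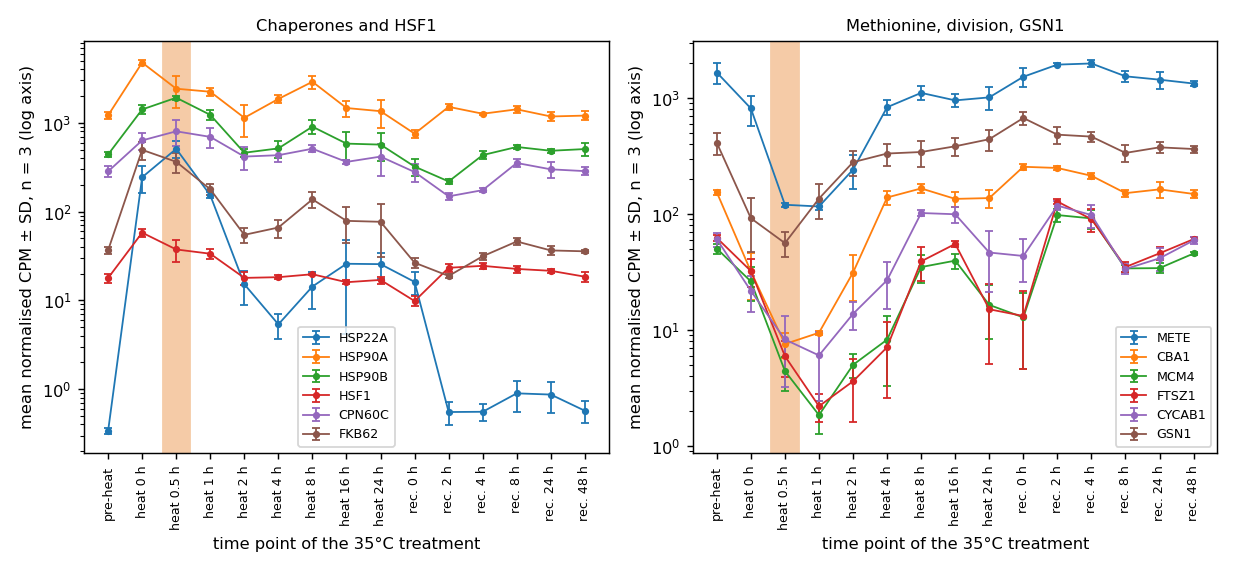
Mean level ± SD (n = 3) in CPM, on a log y axis, at the 15 times of the 35°C treatment for genes that were higher (left; HSP90A did not pass the test) or lower (right) at 0.5 h, with 0.5 h of heat shaded. HSP22A and HSP90B are highest at 0.5 h, HSP90A and HSF1 on reaching 35°C, and MCM4 and FTSZ1 are lowest at 1 h.

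The same time at 40°C served to ask where the response differed with temperature. The difference of the changes (40°C heat 0.5 h over its own pre-heat, minus 35°C heat 0.5 h over pre-heat) was tested in the same fit, and 4671 of all tested genes (30.1%) differed by more than 1 on the log2 scale at an adjusted p under 0.05 (edgeR's quasi-likelihood test), as did 93 of the 190 genes named by rule. Of the 89 named genes that rose at 35°C, 48 had a higher log2 fold change at 40°C and 3 a lower one (PRX6, CPX1 and FEA2), and of the 59 that fell, 14 had a lower log2 fold change at 40°C and 7 a higher one. The rule for naming took large changes at 35°C and whole chaperone lists. These splits therefore describe the named genes, and the split over all genes that changed at 35°C was not counted. Small heat shock proteins that were not called at 35°C were high at 40°C. HSP22E averaged 6.41 ± 0.961 CPM at 35°C heat 0.5 h and 5.49 ± 1.27 CPM at its pre-heat, and 4894 ± 3955 CPM at 40°C heat 0.5 h and 7.10 ± 0.743 CPM at the pre-heat of 40°C, a difference of 9.21 (SE 0.80). HSP22D, HSP22F and CLPB3 differed by 10.67, 9.24 and 5.36 on the log2 scale. CLPB1 averaged 40.2 ± 13.6 CPM at 35°C heat 0.5 h and 15.8 ± 2.47 CPM at its pre-heat, against 6554 ± 5203 CPM at 40°C heat 0.5 h and 15.03 ± 2.31 CPM at the pre-heat of 40°C, a difference of 7.42 (SE 0.75). The 40°C heat libraries spread widely in both genes. The endoplasmic reticulum HSP70 BIP2 (5.51), the cytosolic HSP90A (3.46) and the chloroplast chaperonin CPN60B2 (4.04) differed in the same direction. The log2 fold change of PRX6 was 2.44 at 35°C and 0.25 at 40°C, so that the difference came to -2.20 (SE 0.60), while CPX1 (1.01 at 35°C, -0.95 at 40°C) and FEA2 (1.26 at 35°C, -1.81 at 40°C) had opposite signs at the 2 temperatures. Of the 7 fallen genes whose log2 fold change was higher at 40°C, SAH1, SMC5B, SMC6A, FAP40 and Cre03.g183700 were negative at both temperatures, and CYN47 (-1.22 at 35°C, 0.76 at 40°C) and GSL1 (-1.71 at 35°C, 4.05 at 40°C) had opposite signs. METE had log2 fold changes of -3.79 at 35°C and -3.74 at 40°C, with a difference of 0.05 (SE 0.27) that was not called, while SAH1 fell less at 40°C, with a difference of 1.45. CCT5 had log2 fold changes of -0.81 at 35°C and 0.51 at 40°C, and the proteasome subunit POA5 of -0.46 at 35°C and 1.498 at 40°C, with differences of 1.32 and 1.95.

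Some of the genes that changed stood next to each other on the chromosomes. By gene order, 83 of the 501 (16.6%) had a directly adjacent gene that also rose, where 5.52% of all 17738 placed genes had such a neighbour, and 155 of 893 genes that fell (17.4%) had an adjacent gene that fell, where 9.74% of all placed genes did. BIP2, HSP90B, BIP1 and Cre02.g080750 formed a run of 4 neighbours that rose, and HSP22A and HSP22B, LHCBM4 and Cre06.g283900, and HSF1 and CGL12 formed pairs. Pairs that fell included ORC2 and MINE2, ORC5 and WEE1, FAP24 and EXN4, and ARS8 and PUS4. These shares were not tested, and strand was not used, so head-to-head and tandem pairs were not separated.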

How the data were processed

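RNA-seq of polyA RNA was deposited for 90 libraries, 30 groups of 3, of which 6 are described. Per the study's methods, 150-nt paired-end reads were trimmed with BBDuk, cleaned of contaminants with BBMap, checked with FastQC, aligned with STAR to genome v5.6 at 1 locus with at most 1 mismatch, and counted per gene with HTSeq (for versions and strand: not given in the sources used here). As deposited, the counts are the authors' whole numbers of reads per gene, and the authors' TPM table holds counts over 1 divisor per gene, scaled to 1 total. These divisors were whole numbers from 1 to 6305 (tolerance 0.001), with 17 for LHCBM1, which made up 38.0% to 40.5% of the summed TPM in heat libraries and 33.7% to 36.9% in pre-heat libraries while holding 1.51% to 1.64% of the reads in heat libraries and 1.20% to 1.36% in pre-heat libraries. TPM therefore served only the study's limit on the difference of means, the rule for named genes and the limma alternatives.

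Genes with 10 or more reads in 9 or more libraries (10%) entered edgeR 4.0.16 (R 4.3.3) with TMM factors, 1 mean for each of 30 groups, quasi-likelihood fit (glmQLFit and glmQLFTest, 60 residual degrees of freedom), contrast of 35°C heat 0.5 h minus pre-heat, Benjamini-Hochberg adjustment over 15541 genes. The filter and the limits (adjusted p under 0.05, absolute log2 fold change over 1, mean TPM difference of 1 or more) follow the study's methods, whose own model was a mixed-effect negative binomial model on TPM. Names came from the study's tables, which matched 2296 tested genes to a symbol. Named genes were the 15 largest rises and 15 largest falls with a mean TPM of 5 or more in a group and no overlap in TPM, the 12 called genes with the highest TPM, up to 4 called members of each list of 5 or more (or, with none called, its 2 most abundant), all members of 4 chaperone and heat shock factor lists, and CBLP. Members and lists were chosen with earlier results of these data known. Gene order came from a RefSeq table, used for adjacency only. On simulated counts for the 15541 genes of the same comparison, 75% of 100 genes changed 2-fold and 98% of 100 changed 4-fold were found at the adjusted p, as were 15 of 15341 unchanged genes. The changed genes were drawn only from those above a minimum of pre-heat reads. No effect of the replicate letter was simulated, and neither the fold limit nor the TPM limit was applied to these shares. The labels do not say that a letter marks 1 culture, but deviations of same-letter libraries from their group means correlated at 0.448 (A), 0.147 (B) and 0.343 (C), so the letter was also fitted as a block. The study's methods call the 3 libraries of a group biological replicates, and the labels give only a letter. The p-values rest on each gene's spread within groups, taken over all 30 groups of the fit and not over the compared libraries alone. The 60 residual degrees of freedom count libraries of the same letter at different times as independent. Alternatives used other size factors, DESeq2 1.42.0, limma 3.58.1, other filters and limits, fewer libraries and each library left out.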

Additional observations from a re-analysis of the deposited data

Results flagged for a closer look

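For 3 named genes that were called at 35°C the change at 35°C heat 0.5 h and the change at 40°C heat 0.5 h had opposite signs, each with an adjusted p under 0.05, and the test of the difference between the changes (40°C minus 35°C, edgeR's quasi-likelihood test with Benjamini-Hochberg adjustment) was past its threshold. CPX1, the coproporphyrinogen oxidase of chlorophyll and heme synthesis, had 875, 830.5 and 744 CPM at 35°C heat 0.5 h, against 401, 443 and 369 CPM at pre-heat, a log2 fold change of 1.01, and -0.95 at 40°C, a difference of -1.96 (SE 0.34, adjusted p = 2.46e-06, edgeR). FEA2, an iron-assimilation protein, had 903, 1066 and 1102 CPM at 35°C heat 0.5 h and 376, 481 and 426 CPM at pre-heat, a log2 fold change of 1.26, and -1.81 at 40°C, a difference of -3.07 (SE 0.66, adjusted p = 9.77e-05, edgeR). GSL1, on the list of starch and sugar synthesis, had 4.16, 1.65 and 3.42 CPM at 35°C heat 0.5 h and 8.45, 10.1 and 12.2 CPM at pre-heat, a log2 fold change of -1.71, and 4.05 at 40°C, a difference of 5.75 (SE 0.85, adjusted p = 6.37e-08, edgeR). CCT4, CCT5, POA1, POA5 and IFT27, which were not called at 35°C, and CYN47, whose change at 40°C did not pass, also had opposite signs and a difference past the threshold. The 35°C changes of CPX1 and FEA2 were not called with library size alone.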

How the results depend on the processing

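The count of rises, 501 as reported, was 318 with library size alone, 164 and 237 by limma on log2(TPM + 1) and log2(TPM + 0.1), 870 without the limit on TPM and 143 when glmTreat tested against a 2-fold change. The count of falls, 894 as reported, was 1433 by limma on log2(TPM + 0.1), 1539 without the limit on TPM, 387 by glmTreat, and 1383 with a CPM difference of 1 in place of the TPM difference, an alternative chosen after seeing the data. Rises made up 35.9% of the changes as reported, 20.9% with library size alone, and 15.1% and 14.2% by limma. All 318 rises with library size alone were among the 501, and all 894 falls were among its 1203. Leaving out 1 library in turn gave 467 to 525 rises, 814 to 1004 falls and 34.3% to 36.5% of the changes as rises. With the replicate letter as a block 503 genes rose and 917 fell, and of the 148 named genes that changed only MDN2 and FBA2 lost their call, while 7 in place of 4 carbon concentrating genes rose. No named gene that changed turned its sign under the 18 alternatives, 80 of the 148 kept their call under all of them and 95 under all but glmTreat. Library size alone ended 28 of the calls: HSF1, HSF2, CPX1 and FEA2, as given above, and HSP70B, HSP70G, CPN60A, CPN11, MDN2, FBA2, CRT2, CPN60B1, CPN60B2, DEG8, LPA1, EFG1, EFG9, CAH4, LCIC, LCYE1, MCS/MEC1, PHR5, GPD1, LHCBM8, ANR1, PRX2, FSD1 and Cre06.g284600. Without 1 library DUR3A (heat A, pre-heat B or C), Cre05.g235550 (pre-heat C) and Cre03.g150251 (heat B) also lost theirs. The promoter motif counts were not run. At 18558841 to 27908689 reads a library, genes with few reads before heating (HSP22G, HSP22H) limit what can be seen.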

Other observations

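Groups of the study's functional annotation that were looked at after their values were known held further changes. The annotation used here covered 3137 of the 15541 tested genes. The study lists more transcripts in several of these groups, RNA processing among them, so the counts describe only part of such groups. Of 12 tested genes for cell wall precursor synthesis 3 fell, RHM1 (-1.33), RHM2 (-2.68) and PMM (-1.09), and of 9 for nucleotide salvage 3 fell, with no rise in either. In RNA processing 7 of 53 genes fell and none rose, among them the helicases HEL47 (-1.53) and HEL57 (-1.24). Sulfate assimilation had 2 falls in 8, ARS8 (-1.25) and ATS2 (-1.16), the ATP sulfurylase. The oxidative pentose phosphate pathway had 2 rises and 2 falls in 8, with GLD2 (-1.18) and GND1 (-1.48) as the falls. Lipid degradation had 3 rises in 17 and light signalling 3 rises in 18, with no fall in either. These counts stand beside 3.22% of all tested genes called higher and 5.75% called lower, and were not tested.

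The libraries of one group also differed among themselves in carbon metabolism. The 13 genes of acetate uptake, glyoxylate cycle and gluconeogenesis summed to 10941, 21029 and 19915 CPM in heat libraries A, B and C, against 11063, 12265 and 12037 CPM in pre-heat libraries. The 20 genes of the tricarboxylic acid cycle summed to 4393, 8713 and 7660.2 CPM in heat libraries and 7558, 8814 and 8597 CPM in pre-heat libraries. Heat library A thus had the lowest sum of the heat libraries in both lists, and the part that the distance of the A libraries from B and C has in these sums was not tested.

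NSG1, a gene named for gametogenesis under nitrogen starvation and chosen after its values were seen, had 134, 34.8 and 47.4 CPM in heat libraries and 1051, 778 and 561 CPM in pre-heat libraries (-3.46, SE 0.61). GAP1 had 224, 564 and 484 CPM in heat libraries and 1053, 1423 and 1389.8 CPM in pre-heat libraries (-1.604).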
